A study of Mus musculus with 24 samples.

Results

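The hindlimb bud of the wild type mouse embryo was described from 12 arrays, 1 for each embryo, out of 24 arrays in the series. They are the arrays labelled with the genotype wildtype, and the arrays of Nipbl+/- embryos entered no comparison here. The embryos were Nipbl+/+ littermates from the Nipbl+/- line (RRS strain, maintained to study a gene needed for loading cohesin onto chromosomes), were taken at E10.5 between somite stages 35 and 38, and were not treated. For each embryo the left and right hindlimb buds gave 1 RNA sample and 1 Affymetrix Mouse Gene 1.0 ST array, a design whose probes lie along the whole transcript. Whole buds were used, so mesenchyme, ectoderm, vessels and blood were measured together. The litter of each embryo is not given, so p-values measure the spread between these embryos, of which some may be siblings.

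A limb bud is a pocket of mesenchyme under ectoderm. At its rim the apical ectodermal ridge makes Fgf8 and other Fgf signals that keep the distal mesenchyme growing, and at its posterior edge the zone of polarizing activity makes Shh. Pitx1 and Tbx4 mark the hindlimb and Tbx5 the forelimb, while the posterior genes of the HoxA and HoxD clusters come on in order as the bud grows, with Hoxa13 and Hoxd13 last, in the cells that will form the foot.

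Values are log2 intensities. For 19937 genes the brightest probe set with a single gene symbol was used. The intensity of a probe set depends on its probes as well as on its transcript, so levels were set against a background and not ranked as transcript amounts. The background was the 95th percentile of the means of 1027 olfactory receptor genes, 6.32, called the olfactory receptor level below. Of all genes, 13941 had a mean above it, which is 69.9%.

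The arrays were alike but not equal. The interquartile range of an array, a measure of its dynamic range, was between 3.34 and 3.67 in embryos 1 to 6, with embryo 3 lowest, and between 3.68 and 3.78 in embryos 7 to 12. Any pair of arrays correlated at 0.990 or more, and this and the interquartile range were taken over all 28159 probe sets. The labels give no batch, so what separates these arrays was not tested.

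The buds had the marks of a hindlimb. The mean log2 intensity of Pitx1, the transcription factor that directs hindlimb form, was 11.54 ± 0.090 (SD, n = 12), above 95.9% of genes. Tbx4, which drives hindlimb outgrowth, was at 11.71 ± 0.076 (SD, n = 12). Tbx5, its forelimb counterpart, lay below the olfactory receptor level, at 5.92 ± 0.46 (SD, n = 12). The hindlimb identity list had 10 measured genes, of which 9 were above that level and Tbx5 was not, against 69.9% of all genes above it. Among the 9 were Hoxc10 at 10.57 and Isl1, needed to start the hindlimb bud, at 8.88. They also included Islr, not itself an identity factor, so the count alone does not show identity.

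Both signalling centres were read. Fgf8 of the ridge was nearly the same in every embryo, with a lowest value of 9.25, a median of 9.40 and a highest of 9.51. Shh was lowest at 8.63, had a median of 8.89 and was highest at 9.26. All 13 measured genes of the list for posterior mesenchyme and Shh response lay above the olfactory receptor level, from the Shh antagonist Hhip at 6.999 to the Shh receptor Ptch1 at 10.98. So did all 31 genes of the apical ridge and ectoderm list, from Fgf17 at 7.23 to Bmp7 at 10.65, all 13 genes of Fgf feedback, with the phosphatase Dusp6 at 11.98, and all 9 anterior mesenchyme genes, with Asb4 at 12.75 and Gli3, which represses Shh targets in the anterior bud, at 11.54.

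**Figure D1:**
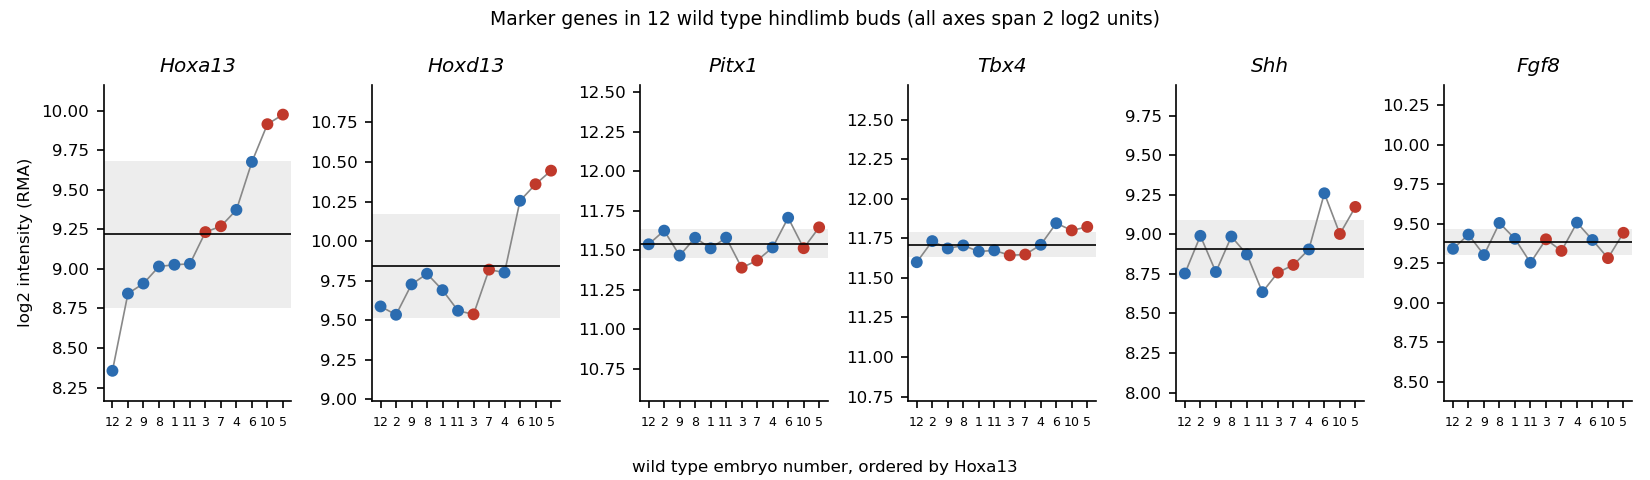
Log2 intensity (vertical axes, each spanning 2 log2 units) of Hoxa13, Hoxd13, Pitx1, Tbx4, Shh and Fgf8 in each of the 12 wild type embryos, placed from the lowest to the highest Hoxa13; red points are the 4 embryos with Y-linked signal and blue points the other 8, the line is the mean and the band ± 1 SD. Hoxa13 spans 8.36 to 9.98 and Hoxd13 9.53 to 10.45, while Fgf8 stays between 9.25 and 9.51.

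Mesenchyme genes were above the level but differed in their spread between embryos. All 22 measured distal mesenchyme genes were above the olfactory receptor level, with Prrx1, a factor of early limb mesenchyme, at 12.64 ± 0.062 (SD, n = 12) and the LIM factor Lhx9 at 12.09 ± 0.076 (SD, n = 12). All 14 proximal mesenchyme genes were above it too, with Meis2, a factor of the proximal limb, at 12.05. The SDs of Prrx1 and Lhx9 were 1.02 and 1.11 times those of genes of the same mean, against 2.93 times for Tbx18 and 5.14 times for Aldh1a2 of the proximal list. The median of this ratio was 1.30 over the distal and 1.69 over the proximal list, and 1.02 over all genes. All 19 Bmp pathway genes, from the digit joint factor Gdf5 at 6.75 to the target Id2 at 12.52, were above the level, and so were all 25 Wnt pathway genes, from Dkk3 at 6.99 to the Wnt-binding protein Sfrp2 at 10.92.

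Cartilage and muscle genes lay on both sides of the level. Sox9, the factor that founds cartilage condensations, was at 11.36, and its collagen target Col2a1 at 8.91. Of 19 chondrogenic genes 16 were above the level, while the matrix genes Acan at 5.81, Matn1 at 5.69 and Matn4 at 6.28 of later cartilage were below it. Of 15 muscle precursor genes 12 were above it, with Pax3, carried by migrating muscle precursors, at 8.77 and Six4 at 10.27. The later muscle factor Myf6 was below it, at 6.13, and Chrna1, a receptor subunit of differentiated muscle, was at 6.24.

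Genes of other cell types were above the level in unequal shares. All 17 endothelial genes were above the level, with the vascular cadherin Cdh5 at 11.27, and so were all 11 measured erythroid genes, with the embryonic globins Hbb-y at 13.49 and Hba-x at 13.38. The summed erythroid signal differed 1.30-fold between the lowest and highest embryo. Of 15 macrophage genes 10 were above the level, with Adgre1 at 5.39 below it, and of 16 nerve and Schwann cell genes 10 were, with the neuronal factors Neurod1 at 4.41 and Sox2 at 4.58 below it. These shares, 66.7% and 62.5%, were not above the 69.9% of all genes. All 20 genes of neighbouring tissue (somite, kidney, gut and heart) were above the level. They ran from Lhx1 at 6.41, close to it, to Meox2, a somite and limb muscle factor, at 10.23. Others were also well above it, with Gata6 at 9.51, Nkx2-5 at 8.36 and Cdx1 at 8.11. A mean above the level alone thus does not show which tissue a gene was read from. In RNA of whole buds, fewer cells of a type and less RNA per cell cannot be told apart.

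Lists of growth and early embryonic genes lay above the level over a wide range of means. All 25 cell cycle genes were above the olfactory receptor level, with the replication clamp Pcna at 13.16. All 14 genes of the heterochronic and early progenitor list were too, from Utf1 at 6.68 and Dppa4 at 6.69, both known from pluripotent cells, to the RNA-binding protein Igf2bp1 at 12.22 and the chromatin protein Hmga2 at 12.66. The imprinted genes Mest and Igf2, the fetal growth factor, were at 13.59 and 13.57, and all 21 measured imprinted genes were above the level, with Rtl1 at 6.798 and Rian at 6.92 among the dimmest. So were 24 of 25 glycolysis and hypoxia genes, with lactate dehydrogenase Ldha at 13.44 and the hypoxia target Car9 at 5.87 below it, and 22 of 24 matrix genes, with Fn1 at 12.31.

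Hox genes of all clusters were read. All 10 measured HoxA genes and all 9 HoxD genes were above the level, as were 8 of 9 HoxB and 8 of 9 HoxC genes. Hoxd10 at 11.58, Hoxd11 at 11.13 and Hoxa9 at 10.97 were the bright ones among the Hox genes of groups 9 to 13, of which 14 of 16 were above the level. Hoxb13 at 6.13 and Hoxc12 at 6.23 were below it. Hoxd1, at 6.34, and Hoxc13, at 6.497, were just above it.

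The Hox genes differed in their spread between embryos. Hoxa10 ran only from 10.41 to 10.54 (SD 0.041) and Hoxa11 from 10.23 to 10.39 (SD 0.048). Their SDs were 0.43 and 0.49 times the SD of genes of the same mean. Hoxa13, their neighbour at the end of the cluster, ran from 8.36 to 9.98 with a median of 9.13, and its SD of 0.47 was 3.93 times that of genes of its mean. Hoxd13 (SD 0.33, ratio 3.03) and Hoxd12 (SD 0.28, ratio 2.40) also had wide ranges. None of these genes passed the test of spread described next, where the adjusted p of Hoxa13 was 0.116 by the limma variance model.

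**Figure D2:**
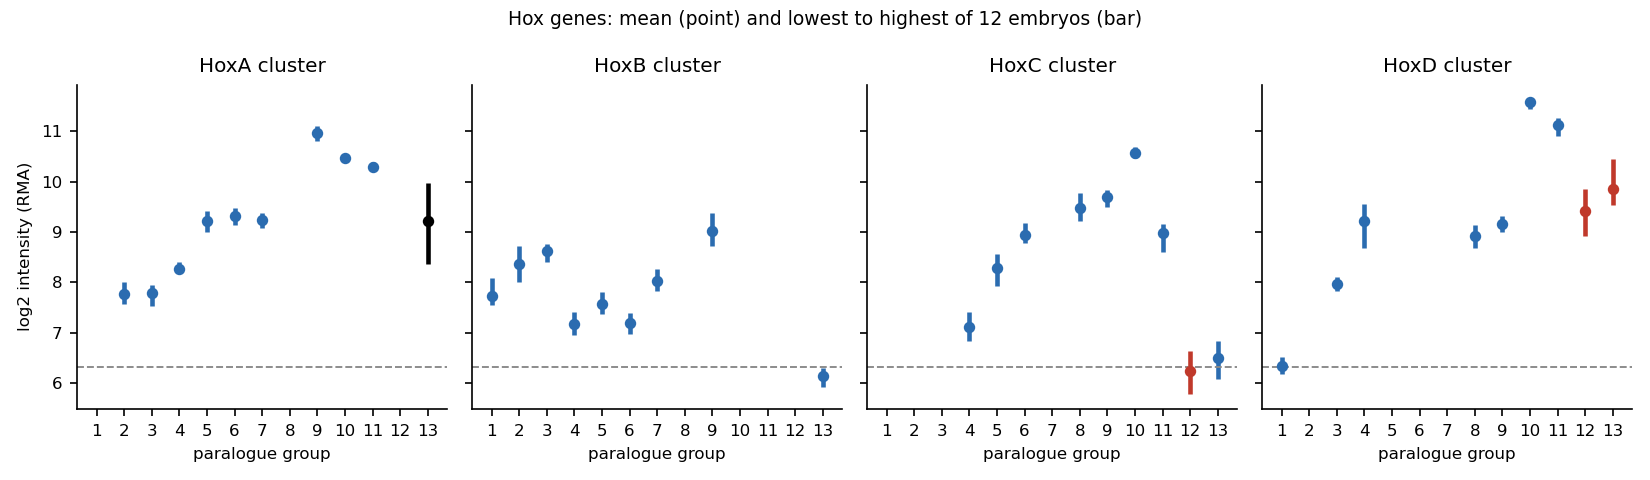
Mean log2 intensity over 12 wild type embryos (points) and the lowest and highest embryo (bars) of each measured Hox gene by paralogue group and cluster; the dashed line is the olfactory receptor level of 6.32, red marks genes that rose with Hoxa13, and Hoxa13 is black. Hoxa10 and Hoxa11 have short bars and Hoxa13, Hoxd12 and Hoxd13 long ones.

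Which genes differed most between embryos was asked by setting each gene's variance against the trend of variance on mean intensity, with limma's trended prior and an F test, one-sided, with adjustment over all genes. At an adjusted p under 0.05, 36 of 19937 genes were called, which is 0.181%, against 945 at an unadjusted p under 0.05. Of the called genes 25 had a mean above the olfactory receptor level and 11 did not. The ratio of a gene's SD to the trend is called its excess below, and its median over all genes was 1.02.

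Sex-linked genes had the widest spread. Xist, the RNA that coats the inactive X chromosome of females, had an excess of 30.1 (SD 3.17), followed by the Y-linked genes Eif2s3y (17.2), Uty (15.9) and, after another gene, Kdm5d (13.5). Xist was between 11.85 and 12.36 in 8 embryos, in which the mean of the 3 Y-linked genes was between 4.44 and 4.73. In embryos 5, 7 and 10 Xist was at 5.34, 4.91 and 5.22, and the Y-linked mean at 9.03, 9.32 and 9.28. Embryo 3 had a Y-linked mean of 8.89 with an intermediate Xist of 7.71, so it matched neither set. The methods describe each sample as the buds of 1 embryo. Whether the RNA of embryo 3 came from 1 embryo alone was not tested, and without embryo 3 the number of genes called variable was 52. The sex-linked list had 12 measured genes, 7 above the level and 4 called variable, and Usp9y, Zfy1 and Zfy2 of the Y chromosome had means of 3.68, 4.42 and 3.37.

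A group of 5 matrix and muscle-type genes varied together. Postn, a matrix protein of connective tissue and of the heart's cushions, was lowest at 6.90, had a median of 7.45 and was highest at 10.59 (excess 9.47). Acta2, the actin of smooth muscle, was lowest at 7.38, had a median of 7.996 and was highest at 10.503 (excess 7.96). The proteoglycans Dcn (6.42 to 9.46, excess 6.70) and Lum (5.36 to 8.45, excess 6.60) and the T-box factor Tbx20, known from the heart (5.53 to 8.14, excess 5.48), completed the group.

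In all 5 genes embryo 11 was highest, and embryos 1, 4 and 6 were also above the mean. Their mean pairwise correlation was 0.911, on the values that grouped them, so this is a description. Of these genes Lum had a mean below the olfactory receptor level. The mean of the group had a correlation of 0.101 with Hoxa13 and 0.0715 with the interquartile range of the array. Of 24 genes in the matrix list, 3 were called variable, all in this group, while Fn1 had an SD of 0.094. The summed signal of the 20 neighbouring tissue genes had a correlation of 0.846 with the mean of the group and differed 1.26-fold between embryos, with all 20 genes above the olfactory receptor level. Gata6, a factor of heart and gut mesoderm in that list, was also highest in embryo 11, at 10.18, and next in embryo 4, at 10.07, but was not called (excess 3.93, adjusted p = 0.116 by the limma variance model). The summed muscle precursor signal had a correlation of 0.737 with the group and the summed macrophage signal 0.676. In the muscle precursor list the spread was uneven. The actin gene Actc1 had an SD of 0.51 and was highest in embryo 11, at 9.60, and next in embryo 4, at 9.34. Pax3 and Six4 of that list had SDs of 0.12 and 0.11. These are descriptions over the same 12 embryos, and the part that neighbouring tissue, muscle precursors or macrophages have in the group was not tested.

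A second group of 9 genes set embryos 1 to 4 apart from embryos 5 to 12. Most were small RNAs of the nucleolus and the ribosome: Snora44, Snora73a, Snora73b, Snora16a and Snord118, which guide or assist the maturation of ribosomal RNA, Rnu3a, and the 5S ribosomal RNA gene n-R5s136. Snora44 was between 8.70 and 9.004 in embryos 1 to 4 and between 10.28 and 10.46 in the other 8, a gap of 1.27 that took up 72.3% of its range. Cwc22, a splicing factor, was lowest at 9.68, had a median of 11.15 and was highest at 12.20 (excess 11.03). Akr1e1, an aldo-keto reductase, joined them with an excess of 5.02, but did not part the embryos in the same way, with its lowest values of 7.48 in embryo 3 and 8.07 in embryo 7.

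The mean pairwise correlation in this group was 0.869, again on the values that grouped it. Its mean had a correlation of 0.718 with the interquartile range of the array and of 0.0293 with Hoxa13. The histone gene H4c3 had the opposite order, with embryos 1 to 4 between 12.05 and 12.41 and the others between 11.17 and 11.49. Poly(A)+ RNA was the stated target of the labelling, and these RNAs mostly lack a poly(A) tail. Per the study's methods, the RNA extracted was total RNA. Small RNAs, histones and 5S genes also have close copies whose transcripts a probe set may read. What separates embryos 1 to 4 was not tested.

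**Figure D3:**
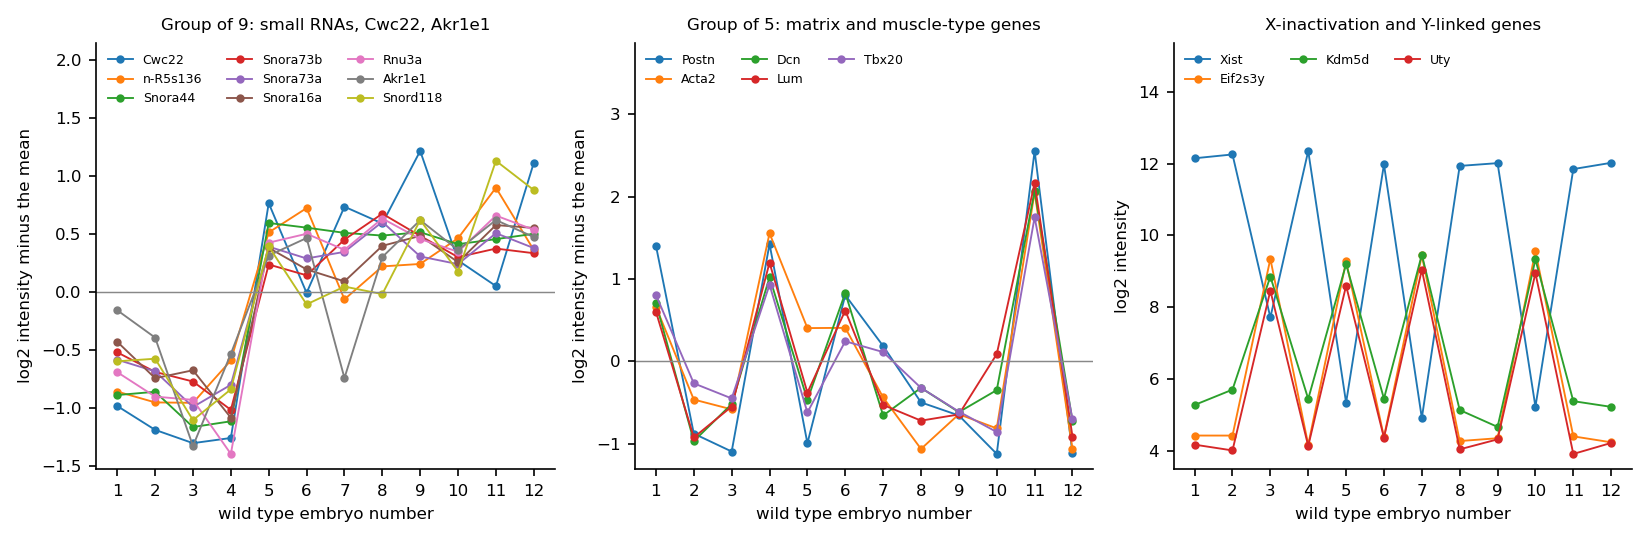
Log2 intensity minus the gene's mean for the group of 9 (left) and the group of 5 (middle), and log2 intensity of Xist, Eif2s3y, Kdm5d and Uty (right), by wild type embryo number; the lines only join the points of a gene, since embryos have no order. Embryos 1 to 4 lie below the mean in the left panel, embryo 11 is highest in the middle panel, and embryos 3, 5, 7 and 10 have Y-linked signal in the right panel.

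Some genes varied in steps that followed neither group. AI506816 was between 10.96 and 11.34 in embryos 1, 2, 7 and 10 and between 6.42 and 8.50 in the other 8 (excess 14.996). Raet1d, a ligand of the natural killer receptor NKG2D, was at 3.62 in embryo 4 and 5.50 in embryo 6, against 8.23 to 9.36 in the rest (excess 13.3). The ribosomal protein gene Rps3a1 was lowest at 10.26 and highest at 12.03 (excess 6.70), but without so clear a step. Its largest gap took up 27.2% of its range, against 50.1% for AI506816 and 47.6% for Raet1d. The probe set of Rps3a1 may also read the many processed copies of this gene. What the steps of AI506816 and Raet1d and the spread of Rps3a1 follow was not tested.

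Aldh1a2 and Osr2 were called variable too. Aldh1a2, which makes retinoic acid in the flank and proximal limb and was the only 1 of 14 proximal mesenchyme genes called, was lowest at 7.31, had a median of 8.70 and was highest at 9.63 (excess 5.14). Embryos 6 and 10 were the low ones, at 7.43 and 7.31, and without either of them Aldh1a2 was not called. Rarb, a retinoic acid receptor and target, was not called (9.53 to 10.75, excess 3.38). Osr2, a zinc finger factor of limb mesenchyme and joints, was lowest at 7.90, had a median of 8.68 and was highest at 9.84 (excess 5.15). Embryos 5, 6 and 10 were its high ones, and it was not called when any 1 of these was left out. None of the markers Pitx1, Tbx4, Hoxa13, Shh and Fgf8 was called.

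Of the 36 genes, 24 were called in every one of the 12 fits that left out 1 embryo, and 19 remained with Xist level as a covariate. With the interquartile range of the array as a covariate, 145 genes were called, the 36 among them, and with the mean trend left out only 6 were. These 6 were Xist, Eif2s3y, Uty, Kdm5d, AI506816 and Raet1d. No gene of the 2 covarying groups was among them, nor were Aldh1a2 and Osr2. Among genes above the olfactory receptor level alone 15 were called, and Tbx20, Akr1e1, Rnu3a, Snord118, Aldh1a2 and Osr2 were not.

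**Figure D4:**
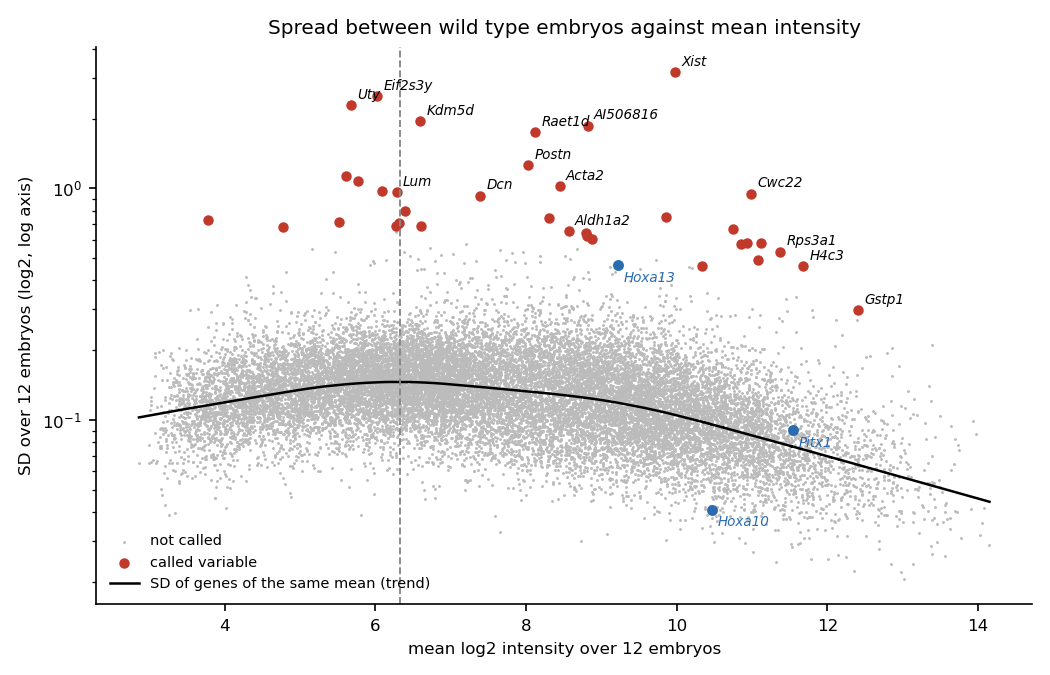
SD over the 12 wild type embryos (vertical log axis) against mean log2 intensity (horizontal axis) for 19937 genes; red points are the 36 genes called variable, the black line the trend of SD on mean, the dashed line the olfactory receptor level of 6.32, and blue points Hoxa13, Hoxa10 and Pitx1. Xist and the Y-linked genes have the largest SDs, and Hoxa10 lies below the trend.

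Hoxa13 was used as a continuous anchor to ask which genes change with it across embryos of this narrow stage window. It was lowest in embryo 12, at 8.36, and highest in embryos 10 and 5, at 9.91 and 9.98, with embryo 6 at 9.68 and the other 8 between 8.84 and 9.37. Each gene was fitted on Hoxa13 with limma, with adjustment over 19936 genes, and a slope is the change in log2 intensity for 1 log2 unit of Hoxa13. At an adjusted p under 0.05, 107 genes rose with Hoxa13, which is 0.537%, and 78 fell, which is 0.391%. At an unadjusted p under 0.05 there were 970 and 1075. Of those that rose 101 had a mean above the olfactory receptor level, and of those that fell 76. The counts of list members below are to be set beside the shares of 0.537% and 0.391% over all genes. The lists were chosen with earlier results of these data known.

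The second principal component of the 13941 genes above the olfactory receptor level followed Hoxa13. It held 14.8% of the variance, and its correlation with Hoxa13, which is 1 of those genes, was 0.947 (n = 12, permutation p = 2e-05, adjusted over 11 relations 0.00022; Spearman's rho 0.888, permutation p = 0.00033, adjusted 0.00363). Without embryos 5 and 10, the farthest from the median of Hoxa13, it was 0.893. The first component held 41.2% of the variance and correlated at -0.992 with the interquartile range of the array. Hoxa13 itself correlated at -0.20 with that range (n = 12, permutation p = 0.527, adjusted 0.725; Spearman's rho -0.308, permutation p = 0.328, adjusted 0.518; r -0.402 without embryos 5 and 10). Neither of these last values passed the test.

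Hoxd13, Hoxd12 and Hoxc12, posterior Hox genes of other clusters, rose with Hoxa13. Hoxd13 rose with a slope of 0.61 (standard error 0.099, adjusted p = 0.00718 from limma) and Hoxd12 with 0.53 (standard error 0.082, adjusted p = 0.00472 from limma). Hoxc12 rose with 0.44 (adjusted p = 0.0445 from limma), with a mean below the olfactory receptor level. Of the 15 genes of groups 9 to 13 other than Hoxa13, these 3 rose and 12 did not pass the test, Hoxa10 (slope -0.03) and Hoxa11 (slope -0.04) among them. Over all genes 0.537% rose. By limma 0 HoxA and 0 HoxB genes passed in either direction (0 higher and 1 lower, and 0 higher and 3 lower, with Hoxa13 at an unadjusted p under 0.05), 1 of 9 HoxC genes rose (Hoxc12), and 2 of 9 HoxD genes did. At an unadjusted p under 0.05 by limma, HoxC genes had 2 positive and 3 negative slopes, and HoxD genes had 2 and 3. Hoxd4, from the front of the HoxD cluster, was not called, with a slope of -0.41 and an adjusted p of 0.0567 by limma.

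As a pair over the 12 embryos, Hoxa13 and Hoxd13 correlated at 0.87 (permutation p = 0.00027, adjusted 0.00148; Spearman's rho 0.776, permutation p = 0.00423, adjusted 0.0233), and at 0.698 without embryos 5 and 10. The limma call of Hoxd13 was lost without embryo 5, with Xist as a covariate and in the 8 embryos without Y-linked signal, and without embryo 12 that of Hoxd12 was. Hoxc12 was called in 3 of the 12 fits without 1 embryo.

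Hottip, the non-coding RNA made from the 5′ end of the HoxA cluster, was among the genes that followed Hoxa13 most closely. Its lowest value was 5.86, its median 6.59 and its highest 7.49, so its values lay on both sides of the olfactory receptor level. It rose with a slope of 0.95 (standard error 0.062, adjusted p = 1.47e-06 from limma). It was called without any 1 embryo, among the 8 embryos without Y-linked signal, and with each covariate tried, where its adjusted p from limma was between 1.49e-06 and 0.000121. On GRCm38.p6 Hottip lies at chr6:52262775-52267603 on the plus strand and Hoxa13 at chr6:52258853-52260880 on the minus strand, so their starts are 1895 bases apart and point away from each other. Their promoters are shown because both genes moved together, from RefSeq, 5′ to 3′ along each gene, with CAATAAA, a sequence that posterior Hox proteins can bind, in capitals.
Hottip promoter (chr6:52262525-52262824, plus strand): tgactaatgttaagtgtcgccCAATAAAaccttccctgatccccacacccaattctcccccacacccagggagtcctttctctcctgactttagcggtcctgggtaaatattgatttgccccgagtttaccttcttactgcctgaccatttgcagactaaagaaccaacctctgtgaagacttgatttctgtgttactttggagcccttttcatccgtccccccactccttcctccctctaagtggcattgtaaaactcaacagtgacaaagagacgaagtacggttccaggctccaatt
Hoxa13 promoter (chr6:52260831-52261130, minus strand): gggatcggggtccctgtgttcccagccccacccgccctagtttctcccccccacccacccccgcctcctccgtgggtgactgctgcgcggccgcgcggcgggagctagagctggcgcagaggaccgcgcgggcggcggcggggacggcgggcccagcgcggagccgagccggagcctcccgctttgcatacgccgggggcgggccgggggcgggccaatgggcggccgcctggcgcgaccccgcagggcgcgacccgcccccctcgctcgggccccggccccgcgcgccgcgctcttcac
CAATAAA was searched on both strands (as TTTATTG on the other). It occurs once in the Hottip window and not in the Hoxa13 window, and in 1511 of 32851 RefSeq promoters of the same 300 bases, which is 4.6%. The windows also differ in base composition, with 47.7% G and C for Hottip and 81.0% for Hoxa13.

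Single genes of muscle, cartilage and tendon progenitors rose with Hoxa13. Myf5, the muscle determination factor, was lowest at 6.07, below the olfactory receptor level, had a median of 6.91 and was highest at 7.92. It had the smallest p of all genes (slope 1.10, standard error 0.069, adjusted p = 1.47e-06 from limma), and its lowest embryo was that with the lowest Hoxa13. It was the only 1 of 15 muscle precursor genes to pass. Sox9 rose with a slope of 0.57 (10.93 to 11.81, adjusted p = 0.000237 from limma). Col9a1, a cartilage collagen, rose with 0.34 (adjusted p = 0.0422 from limma), a call made in 3 of the 12 fits without 1 embryo, and the other 17 chondrogenic genes did not pass. Scx, the tendon progenitor factor, rose with 0.61 (8.55 to 9.67, adjusted p = 0.00146 from limma).

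**Figure D5:**
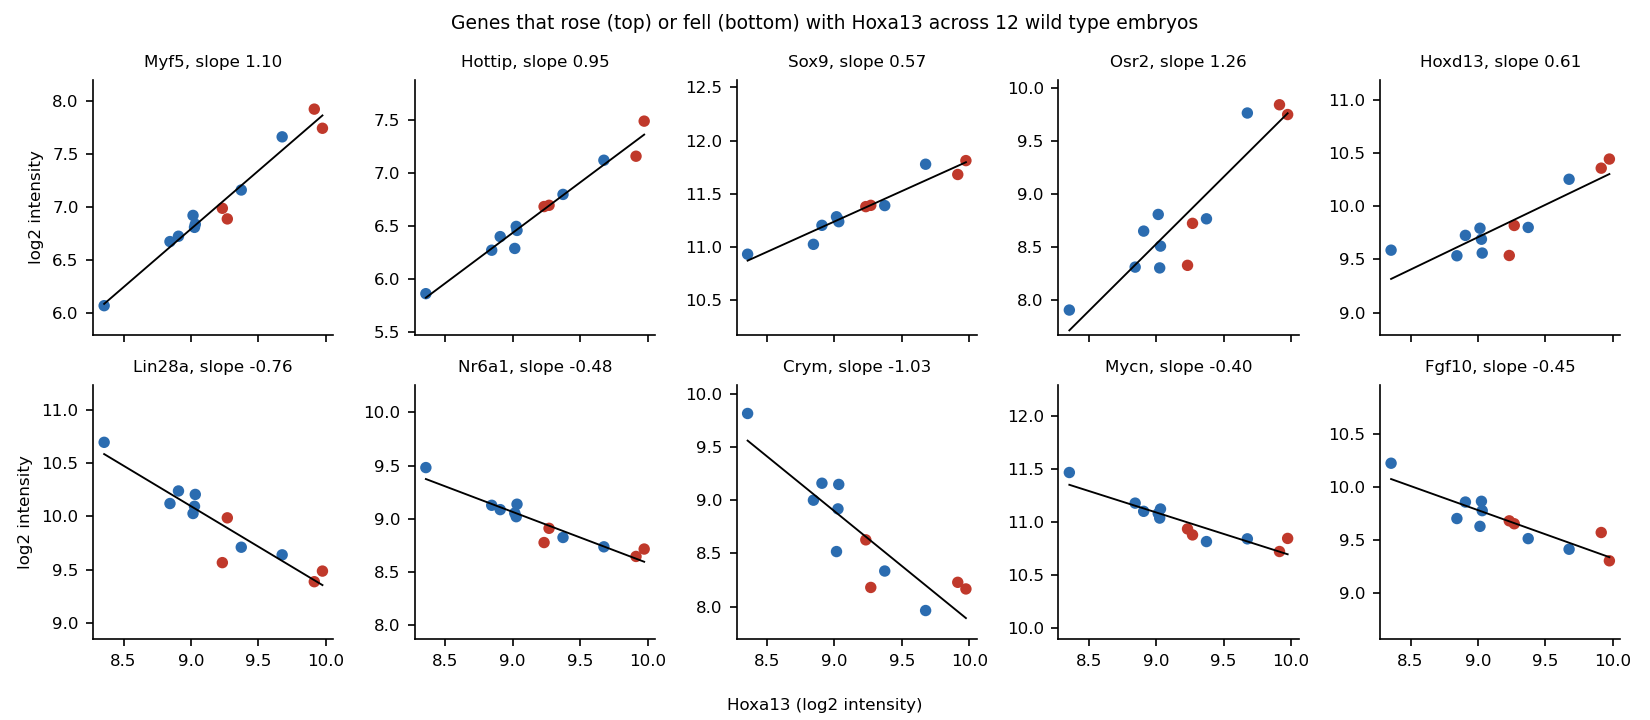
Log2 intensity of Myf5, Hottip, Sox9, Osr2 and Hoxd13, which rose (top), and Lin28a, Nr6a1, Crym, Mycn and Fgf10, which fell (bottom), against that of Hoxa13 (horizontal axes) in 12 wild type embryos; red points are the 4 embryos with Y-linked signal, blue the other 8, and lines the limma fits, with vertical axes of equal length. Myf5 and Hottip lie close to their lines, with slopes of 1.10 and 0.95, and Lin28a has a slope of -0.76.

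Osr2, Tbx18, Tbx15, Mab21l2, Bcl11a and Meox2, transcription regulators of different lists or of none, rose with Hoxa13. Osr2 had a slope of 1.26 (standard error 0.15, adjusted p = 0.000650 from limma). Tbx18 rose with 0.59 and Tbx15 with 0.27, so that with Scx 3 of 14 proximal mesenchyme genes rose and 11 did not pass. Over all genes 0.537% rose. Tbx15 was called in only 2 of the 12 fits without 1 embryo. Mab21l2 rose with 0.68, from 10.91 to 12.09 over the embryos, Bcl11a with 0.57, and Meox2, the only 1 of 20 neighbouring tissue genes to pass, with 0.48. Islr, a secreted protein of mesenchymal cells, rose with 0.84 and was the 1 of 10 genes of the hindlimb identity list to do so; it is not itself an identity factor. Pitx1 had a slope of 0.05 (adjusted p = 0.884 from limma).

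The distal mesenchyme list held genes of both directions. Cyp26b1, which breaks down retinoic acid in the distal bud, rose with a slope of 0.33, and Jag1, a Notch ligand, with 0.39. Mycn, a Myc family transcription factor that drives growth, fell with -0.40, the zinc finger factor Sall4 with -0.29, and Fgf10, the mesenchymal Fgf that maintains the ridge, with -0.45 (9.30 to 10.22, adjusted p = 0.00718 from limma). With Hoxd13, 3 of the 21 tested genes rose, 3 fell and 15 did not pass. Over all genes 0.537% rose and 0.391% fell. The calls of Mycn and Fgf10 were lost without embryo 12, where both were highest, and Sall4 and Jag1 were called in 8 and 2 of the 12 fits without 1 embryo.

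Of the signalling lists, few genes passed. Hhip, a Shh target that binds Shh, rose with a slope of 0.61 (6.51 to 7.46, adjusted p = 0.00427 from limma), a call that held without any 1 embryo. Shh had a slope of 0.26 (adjusted p = 0.257 from limma). Hhip was the only 1 of 13 posterior genes to pass, though the median correlation of that list with Hoxa13 was 0.649 against 0.0175 over all genes. Krt14, a keratin of surface ectoderm, was the only 1 of 31 ridge and ectoderm genes to rise (slope 0.39), and Lef1, a transcription factor of the Wnt pathway, the only 1 of 25 Wnt genes to fall (slope -0.31). The calls of Krt14 and Lef1 were lost without embryo 12. At an unadjusted p under 0.05 by limma, 2 ridge and ectoderm genes had a positive and 10 a negative slope. The summed signal of that list had a correlation of -0.54 with Hoxa13, so Krt14 ran against most of it. Among Wnt genes 4 slopes were positive and 3 negative at that p. Of 13 Fgf feedback genes, 19 Bmp pathway genes and 9 anterior genes 0 passed by limma. At an unadjusted p under 0.05 these lists had 1, 1 and 0 genes with a positive and 4, 2 and 2 with a negative slope. Fgf8 had a slope near 0, which changed sign with some settings.

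Of the markers taken as pairs with Hoxa13 over 12 embryos, Tbx4 correlated at 0.809 (permutation p = 0.00146, adjusted 0.00535). By rank this was not past the threshold (Spearman's rho 0.559, permutation p = 0.0628, adjusted 0.183), it was 0.668 without embryos 5 and 10, and the limma slope of Tbx4 of 0.13 had an adjusted p of 0.306. Shh correlated at 0.649 (permutation p = 0.0222, adjusted 0.0610; Spearman's rho 0.552, permutation p = 0.0666, adjusted 0.183; r 0.524 without those embryos). Pitx1 was at 0.235 (permutation p = 0.463, adjusted 0.725) with a rho of 0.133 (permutation p = 0.682, adjusted 0.877), and r was 0.138 without those embryos. Fgf8 was at 0.0864 (permutation p = 0.790, adjusted 0.965) with a rho of 0.042 (permutation p = 0.905, adjusted 0.974), and r was 0.257 without them. Nipbl was at 0.0135 (permutation p = 0.967, adjusted 0.967) with a rho of 0.014 (permutation p = 0.974, adjusted 0.974), and r was -0.0234 without them.

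Lin28a, Trim71, Sall4 and Mycn of the heterochronic and early progenitor list fell with Hoxa13. Lin28a, which blocks the maturation of let-7 microRNAs, was lowest at 9.39, had a median of 10.01 and was highest at 10.70. Its slope was -0.76 (standard error 0.088, adjusted p = 0.000585 from limma), with the highest value in the embryo with the lowest Hoxa13. Trim71, a let-7 target that keeps progenitors dividing, fell with -0.37. With Sall4 and Mycn, 4 of 14 heterochronic and early progenitor genes fell, 0 rose and 10 did not pass. At an unadjusted p under 0.05, 7 fell and 1 rose. Over all genes 0.391% fell, and this list was chosen with earlier results of these data known. Sall4 and Mycn are also counted in the distal mesenchyme list. Lin28b, the close relative of Lin28a, had a slope of -0.37 and an adjusted p of 0.0588 by limma. The median correlation of this list with Hoxa13 was -0.51. Hmga2 and Igf2bp1, other let-7 targets, had SDs of 0.053 and 0.048 and were not called. Their slopes were positive, 0.082 and 0.015, with correlations of 0.73 and 0.15 with Hoxa13. The call of Lin28a held without any 1 embryo but not with Hoxd13 as the anchor in place of Hoxa13 (adjusted p = 0.205 from limma, from 1.32e-05 to 0.205 over its alternatives), and of the 4 genes only Lin28a was called without embryo 12 or with Xist as a covariate, and none with Hoxd13 as the anchor.

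Several other genes of early embryonic tissue fell with Hoxa13, named here by their p and not as a tested group. Nr6a1, a nuclear receptor that acts in the trunk, fell with a slope of -0.48 (8.64 to 9.48, adjusted p = 0.00146 from limma), Greb1l, needed for kidney and other mesodermal organs, with -0.61, and Prtg, a receptor of early embryonic tissue, with -0.56. Crym, which binds thyroid hormone, had the steepest slope of the 15 falling genes with the smallest p, -1.03 (7.96 to 9.82), and its call was lost without embryo 12. The nerve growth factor receptor Ngfr fell with -0.48 and the non-coding neighbour of Myc, Pvt1, with -0.45. Dlk1, an imprinted inhibitor of differentiation, fell with -0.46, while the imprinted cell cycle inhibitor Cdkn1c rose with 0.44. These were the 2 of 21 imprinted genes that passed. Cdkn1c was called in all 12 fits without 1 embryo and Dlk1 in 2 of them.

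Mir100hg, chosen after its values were seen, is the host of the microRNAs let-7a, miR-100 and miR-125b. It rose with Hoxa13 with a slope of 0.68 (9.12 to 10.45, standard error 0.090, adjusted p = 0.00176 from limma), and its call held whichever embryo was left out. With Hoxd13 as the anchor it was not called. It spans chr9:41376526-41615185 on GRCm38.p6. The mature microRNAs of its hairpins are shown from RefSeq because Lin28a acts on let-7 and both let-7 and miR-125 bind Lin28 transcripts, with the seed, bases 2 to 8, in capitals.
mmu-let-7a-5p: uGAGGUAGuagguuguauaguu
mmu-miR-100-5p: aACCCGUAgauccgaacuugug
mmu-miR-125b-5p: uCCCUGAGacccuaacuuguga
The 3 seeds differ. The hairpin of let-7a is Mirlet7a-2 at chr9:41536716-41536811, that of miR-100 is Mir100 at chr9:41531425-41531504 and that of miR-125b is Mir125b-1 at chr9:41581926-41582002, all on the plus strand. The probe sets of these hairpins had means of 4.72, 4.18 and 4.86, all below the olfactory receptor level, with adjusted p of 0.828, 0.904 and 0.962 by limma. An array for messenger RNA does not measure the mature microRNAs.

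Genes outside patterning also moved with Hoxa13. Gjb2, a gap junction channel, rose with a slope of 0.72, Hpgd, which degrades prostaglandins, with 0.80, and Serinc2, also called variable, with 0.93. Of 14 p53 target genes 2 rose, Pmaip1, a promoter of apoptosis, with 0.99 (7.89 to 9.43) and Trp53inp1 with 0.55, and 12 did not pass. Over all genes 0.537% rose. At an unadjusted p under 0.05 by limma this list had 2 positive and 2 negative slopes. Ccng2, a cyclin of cells leaving the cycle, rose with 0.54. Of 25 cell cycle genes 0 passed by limma, also 0 at an unadjusted p under 0.05, with a median correlation of -0.26. Ddit4, a stress-induced inhibitor of growth signalling, was the only 1 of 25 glycolysis and hypoxia genes to pass (slope 0.48), and the collagens Col1a2 (0.45) and Col12a1 (0.46) were the 2 of 24 matrix genes. Of the 12 fits without 1 embryo, Ddit4 was called in 2, Col12a1 in 5 and Col1a2 in 10. At an unadjusted p under 0.05 by limma, 2 glycolysis and hypoxia genes had a positive and 6 a negative slope. The summed signal of that list had a correlation of -0.58 with Hoxa13, opposite in sign to the slope of Ddit4. Among matrix genes 6 slopes were positive and 0 negative at that p.

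Genes that can respond to sample handling did not pass by limma: 0 of 20 immediate early genes, 0 of 10 heat shock genes and 0 of 18 amino acid stress genes. At an unadjusted p under 0.05 there were 2, 0 and 0 with a positive and 1, 2 and 6 with a negative slope. The correlation of their summed signals with Hoxa13 was 0.29, -0.74 and -0.68. Of 17 endothelial, 11 erythroid and 15 macrophage genes 0 passed by limma (2, 0 and 0 at an unadjusted p under 0.05, with negative slopes), and their summed signals had correlations of -0.25, -0.29 and 0.17. Of 16 nerve and Schwann cell genes 1 rose, Dcx (slope 0.41), a call made in 7 of the 12 fits without 1 embryo. The summed signal of that list, in which Dcx was the brightest gene, had a correlation of 0.80 with Hoxa13 against a median of 0.278 over its genes, with Neurod1 and Sox2 below the olfactory receptor level. The summed chondrogenic signal, in which Sox9 was the brightest gene, had a correlation of 0.95 with Hoxa13 and differed 1.28-fold between embryos, while the median correlation over its genes was 0.36 and the lowest -0.64. All these correlations are over the same 12 embryos and are descriptions. Of 11 reference and 14 cohesin genes 0 passed by limma for slope or spread, with 2 and 0 negative slopes at an unadjusted p under 0.05. The reference genes included B2m (SD 0.11) and Actb (SD 0.032), and Nipbl, with a mean of 10.52, had an SD of 0.12.

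The number of genes called with Hoxa13 rested in part on embryo 12. Without it 35 genes rose and 19 fell, 50 of these 54 among the 185 called with all embryos. Without embryo 3 there were 154 and 122. Embryos 5 and 10, the highest in Hoxa13, carry Y-linked signal. Embryos 3 and 7, which also carry it, had Hoxa13 at 9.23 and 9.27, just above its mean of 9.22. The correlation of Hoxa13 was -0.63 with Xist, and 0.60, 0.62 and 0.61 with Eif2s3y, Kdm5d and Uty. With Xist as a covariate 56 genes rose and 22 fell. Of the genes named above, Hoxd13, Hoxc12, Col9a1, Tbx15, Cyp26b1, Jag1, Dcx, Col12a1, Mycn, Sall4, Trim71, Lef1, Ngfr, Pvt1 and Dlk1 were not called with that covariate. In the 8 embryos without Y-linked signal 51 rose and 26 fell, and there the same genes except Mycn, and also Hhip, Krt14 and Meox2, were not called. With embryos 1 to 4 against 5 to 12 as a covariate all 185 genes were called, among 157 that rose and 188 that fell. With Hoxd13 as the anchor, 41 of the 107 rising and 8 of the 78 falling genes were called, and Hoxd13 itself was not tested. Scx, Gjb2, Hpgd, Ccng2, Mir100hg, Nr6a1, Greb1l, Crym, Fgf10, Pvt1 and Lef1 were among those not called with that anchor. Of the 107 genes that rose 30, and of the 78 that fell 12, were called in all 12 fits without 1 embryo. All 15 of the rising genes with the smallest p were among these 30, and of the 15 falling genes all but Crym, Ngfr, Mycn and P3h2 were called in all 12 fits. All 185 slopes kept their sign within embryos 1 to 6, within embryos 7 to 12 and in the 8 embryos without Y-linked signal, though the genes had been chosen on all 12 embryos.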

How the data were processed

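Per the study's methods, each array held RNA of the hindlimb buds of 1 embryo. The deposited values are log2 intensities made by the authors from all 24 arrays with Expression File Creator (GenePattern) and RMA, as named in the submitters' processing notes: background was corrected, distributions were equalized and each probe set was summarised. No version of RMA is given in the sources read. Equalizing can hide a change that most genes share. Array medians were between 7.25 and 7.35, 0 pairs of arrays were identical, and precision is limited by how many arrays there are.

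Of 28159 probe sets, 21640 had 1 gene symbol, 1321 several and 5198 none listed; 21553 matched RefSeq genes of GRCm38.p6 by Entrez ID, used for current symbols. The brightest probe set over these 12 arrays was taken for the 954 genes that had several, giving 19937 genes; other genes were not analysed here. The members, gene lists and tests were chosen with earlier results of these data known, and lists are described by counts, without a test.

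Spread was tested with limma 3.58.1 in R 4.3.3 (squeezeVar with a trended robust prior, F test with 11 and 8.08 degrees of freedom, one-sided), slopes on Hoxa13 with lmFit and eBayes (two-sided), in both cases with Benjamini-Hochberg adjustment and a threshold of 0.05. Pairs were tested with 100000 permutations, two-sided. Variable genes were grouped by average linkage at a mean correlation of 0.7, with at least 4 genes a group. Both fits were tested on simulated data. Promoters and microRNAs were taken from RefSeq.

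The genes named are the markers, the Hox genes, Xist and Y-linked genes, Nipbl and B2m, the 20 called genes above the olfactory receptor level with the largest excess, the 15 with the smallest p in each direction with Hoxa13, members of the covarying groups up to the 6 with the largest excess, and in each list up to 3 brightest, 3 dimmest and 3 variable members and up to 4 per direction with the smallest p. Akr1e1, Snord118, Lin28b, Actc1, Mir100hg and its hairpins fall outside this rule and were chosen after their values were seen. Alternatives covered the background, the variance model, the anchor, filters, scaling, covariates, array weights and each embryo left out. Python 3.11.15 with matplotlib 3.10.9 drew the figures.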

Additional observations from a re-analysis of the deposited data

How the results depend on the processing

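No paired analysis was possible because wild type embryos alone were analysed and no groups were compared. The number of genes above the olfactory receptor level was between 11278 and 16841 over its alternatives. The number of variable genes was 36, against 6 with no trend on the mean, 15 among genes above the olfactory receptor level alone, 19 with Xist as a covariate, 145 with the array interquartile range and 137 with embryos 1 to 6 against 7 to 12 as a covariate, the last chosen after seeing the data. Leaving out 1 embryo gave between 29 and 52. For Hoxa13, 107 genes rose and 78 fell, against 56 and 11 with Hoxd13 as the anchor, 56 and 22 with Xist, 318 and 209 with the interquartile range and 407 and 436 with array weights. The falling genes alone moved to 143 with a trended robust variance and 41 with the erythroid signal. Of the settings chosen after seeing the data, 51 rose and 26 fell in the 8 embryos without Y-linked signal, and 157 and 188 with embryos 1 to 4 against 5 to 12 as a covariate. Leaving out 1 embryo gave between 35 (without embryo 12) and 154 (without embryo 3) rising and between 19 and 122 falling genes; without embryos 2, 5 and 6 there were 71, 65 and 61 rising and 43, 42 and 37 falling genes, and without embryos 1, 9 and 11 there were 45, 44 and 51 falling genes. The slope of Fgf8, 0.015, turned to -0.0062 with the interquartile range, -0.0064 with the erythroid signal, -0.019 with embryos 1 to 6 against 7 to 12, and, without 1 embryo, lay between -0.0071 (without embryo 5) and 0.061 (without embryo 10), with -0.0016 without embryo 12. Fewer embryos or degrees of freedom are part of the leave-one-out and covariate settings, and the cause was otherwise not tested. Small differences between embryos in genes near the olfactory receptor level are limited by the signal over background.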
